A study of Mus musculus with 12 samples.

Results

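Adrenergic receptors and the β-arrestins that switch them off were followed in mouse epididymal white adipocytes (eWAs). The genes are those whose symbol in the deposited count table is Adrb1, Adrb3, Adra1a, Adra1b, Adra2a, Adra2c, Arrb1 or Arrb2. All 8 were found among the 20295 genes of the table, and 7 passed the filter on low counts that left 13543 genes for testing. The 12 RNA-seq libraries come from mature adipocytes floated out of collagenase-digested epididymal fat of lean male C57/BL6J mice and held in a hydrogel for 2 days, at 50000 cells per well. There were 4 groups of 3 libraries, which carried no genetic change: vehicle (DMSO), isoproterenol, an agonist of β-adrenoceptors, for 3 h (ISO), Atglistatin and CAY10499, which inhibit the lipases ATGL and HSL (Lip), and the inhibitors followed by the agonist for 3 h (Lip+ISO). The age and number of the mice, and whether fat of several mice was pooled, are not given in the sources used here.

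β-adrenoceptors couple to the stimulatory G protein Gs, which drives adenylyl cyclase, cAMP and protein kinase A, and through it lipolysis in fat cells. α1-adrenoceptors couple to Gq and calcium signaling, and α2-adrenoceptors couple to the inhibitory G protein Gi and restrain cAMP. Once a receptor is occupied, receptor kinases phosphorylate its tail, and the β-arrestins bind there, uncouple the G protein and hand the receptor to clathrin-coated pits. Adrb3 is known as the characteristic β-adrenoceptor of rodent adipocytes. It lacks most of the phosphorylation sites that arrestins need, and it is known to resist desensitization.

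The libraries held 22632220 to 43707557 counts. The summed level of 7 adipocyte markers (Adipoq, Plin1, Fabp4, Lep, Cidec, Pparg and Lipe) was 20228 to 32436 CPM (counts scaled to library size) in every group, and no adipocyte marker was at 0. Markers of other cells were present at lower levels. The summed level of 9 macrophage markers was 52.8 to 66.4 CPM in vehicle and 110 to 166 CPM in ISO, that of 8 endothelial markers 106 to 203 and 190 to 369 CPM, and that of 7 fibroblast or preadipocyte markers 388 to 690 and 752 to 1007 CPM. With adjusted p up to 0.05, 6 of 9, 1 of 8 and 3 of 7 of these were higher in ISO than in vehicle, where 12.3% of all tested genes were higher and 13.9% lower, and 2 of 7 adipocyte markers (Lep and Pparg) were lower. In Lip+ISO the same 3 sums were 71.6 to 123, 79.0 to 231 and 458 to 665 CPM. In Lip they were 57.0 to 62.6, 58.7 to 182 and 505 to 547 CPM. By edgeR, 2 of 9 (Csf1r and Cd14), 0 of 8 and 0 of 7 of these markers were called higher in Lip+ISO. Among all tested genes 11.5% were higher in this comparison and 15.8% lower. Of the other markers, Wt1 (mesothelial) and Tubb3 (nerve) were higher in Lip+ISO than in Lip, and Acta2 (smooth muscle) and the adipocyte markers Lep (-1.67 on the log2 scale) and Lipe (-0.44) were lower. Of 5 mesothelial markers 1 was higher in ISO than in vehicle, as was 1 of 8 markers of smooth muscle cells and pericytes. Of 4 tested markers of Schwann cells and nerve 0 were called. An unadjusted edgeR p under 0.05 was found for 2 of them (Sox10 and Tubb3), against 38.9% of all tested genes. In bulk RNA, fewer cells of a type and less RNA per cell cannot be told apart, and the part of these shifts in the values below was not tested.

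The 250 bases upstream of the transcript start were looked up for each gene in RefSeq promoter sequences (build GRCm38.p6), since several of the genes moved together and the cAMP response element is a known target of protein kinase A signaling. Of the 8 genes, 4 had an entry (Adra1b, Adra2a, Adra2c and Adrb1). Adrb3, Adra1a and Arrb1, which also fell with ISO, had none, so an element shared by the genes that fell could not be looked up. Adrb1, which fell with ISO, and Adra1b, which did not pass the test, are shown, from chr19:56721867-56722116 on the plus strand and chr11:43836490-43836739 on the minus strand. Adra1b had a further window, at chr11:43901238-43901487 on the minus strand, which is not shown. Which of its windows belongs to the counted transcript was not determined. Letters of the half-site TGACG, searched on both strands, are in capitals.
Adrb1: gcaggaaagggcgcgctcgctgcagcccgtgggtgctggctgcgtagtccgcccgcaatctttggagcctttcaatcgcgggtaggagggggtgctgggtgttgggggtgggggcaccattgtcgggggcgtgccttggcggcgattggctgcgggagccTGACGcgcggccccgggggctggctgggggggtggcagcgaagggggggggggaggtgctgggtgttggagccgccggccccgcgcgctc
Adra1b: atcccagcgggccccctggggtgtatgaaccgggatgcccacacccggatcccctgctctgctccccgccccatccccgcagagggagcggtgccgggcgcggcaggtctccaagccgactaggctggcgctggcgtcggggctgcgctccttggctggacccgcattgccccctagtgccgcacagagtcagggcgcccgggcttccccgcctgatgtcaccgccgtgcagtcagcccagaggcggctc
The Adrb1 window held 1 half-site, which begins 90 bases before the start, and the Adra2a window held 1 at 69 bases. Adra2a, whose sequence is not shown, did not pass the test in ISO against vehicle. Neither window of Adra1b nor that of Adra2c held one. The half-site is common, since 17.8% of 32851 promoter windows of this length hold it, and the full element TGACGTCA, which contains the half-site and stands in 1.55% of the windows, was in none of the members' windows. A match describes letters only and is not a binding site.

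Levels of different genes were compared per length, as reads per kilobase of counted sequence and library size (RPKM). In vehicle the order was Adrb3 at 65.4 ± 16.5 RPKM (SD, n = 3), Arrb1 at 12.1 ± 0.377, Adrb1 at 4.84 ± 0.345, Adra1a at 3.52 ± 0.557, Arrb2 at 3.00 ± 0.275, Adra1b at 0.367 ± 0.0684, Adra2a at 0.0479 ± 0.0566 and Adra2c at 0.00437 ± 0.00758. The libraries of Adra1a and Arrb2 overlapped, as did those of Adra2a and Adra2c, and the other neighbors in this order were separate. Adrb3 was thus the most abundant of these mRNAs in unstimulated eWAs. In ISO and in Lip+ISO its level per length, 10.3 ± 2.60 and 10.5 ± 2.54 RPKM, overlapped that of Arrb1, 9.21 ± 0.590 and 8.88 ± 1.07 RPKM. In Lip it stood at 28.6 ± 3.78 RPKM, above Arrb1 at 10.7 ± 0.567 RPKM in every library.

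**Figure D1:**
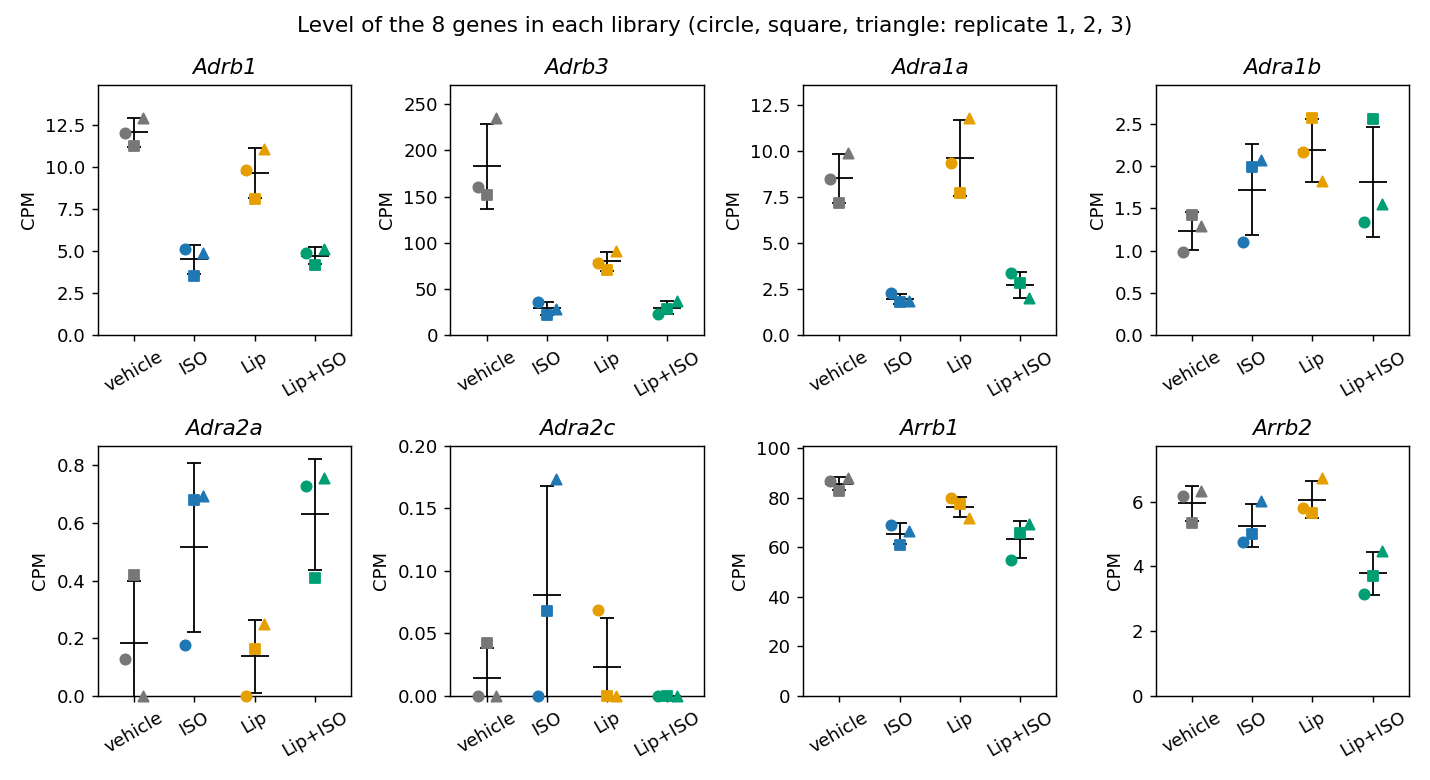
Level of each of the 8 genes in CPM (vertical axes from 0, scaled per gene) in the 12 libraries, with the mean and SD of each group of 3 as a black line and bars. Adrb1, Adrb3 and Adra1a are low in all 6 libraries with ISO, Adrb3 is also lower in Lip (70.6 to 91.3 CPM) than in vehicle (152 to 236 CPM), and Adra2c is at or near 0 throughout.

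To ask how the agonist acts on the genes of its own receptors, ISO was compared with vehicle. Of the 7 tested genes, 4 were lower in ISO (Adrb1, Adrb3, Adra1a and Arrb1) and 0 were higher, where 13.9% of all tested genes were lower and 12.3% were higher (quasi-likelihood test of edgeR, with p adjusted by Benjamini-Hochberg and called up to 0.05). DESeq2 called 4 genes as well, with no share of all genes taken for it here or below. By edgeR, 4 had an unadjusted p under 0.05, against 38.9% of all tested genes. For the same 4 genes every ISO library lay below every vehicle library, which held for 22.6% of all tested genes. Of these falls, 3 reached 1 log2 unit, where 1.8% of all tested genes were called lower by that much.

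Adrb3 (NM_013462, mm9 chr8:28336248-28340060, minus strand), the adipocyte β3-adrenoceptor, had 161, 152 and 236 CPM in the vehicle libraries and 36.2, 21.7 and 28.3 CPM in the ISO libraries. All 3 ISO libraries were far below the lowest vehicle library, and vehicle replicate 3 stood above the other vehicle libraries. The log2 fold change was -2.67 ± 0.23 (SE, edgeR adjusted p = 3.9e-06), a 6.38-fold fall, and only 2 of 13543 tested genes had a more negative one. It was -2.96 to -2.44 in the 15 fits that left out a library or a replicate number.

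Adrb1 (NM_007419, mm9 chr19:56796862-56799352, plus strand) encodes the β1-adrenoceptor, the form that also drives the heart. It had 12.03, 11.2 and 12.9 CPM in vehicle and 5.11, 3.51 and 4.89 CPM in ISO, with no overlap. The fall was 2.70-fold (log2 fold change -1.43 ± 0.18 SE, edgeR adjusted p = 1.0e-04). The ratio of Adrb3 to Adrb1 per length, taken inside each library and so free of scaling between libraries, was 11.9 to 16.3 in vehicle and 5.17 to 6.32 in ISO. Adrb3 thus lost more of its level than Adrb1 in all 3 ISO libraries, although 3 against 3 libraries cannot reach p < 0.05 in an exact permutation test.

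Among the α1-adrenoceptors, Adra1a and Adra1b differed. Adra1a (NM_001271761, mm9 chr14:67254088-67390005, plus strand) had 8.50, 7.18 and 9.87 CPM in vehicle and 2.29, 1.79 and 1.86 CPM in ISO, a 4.32-fold fall (log2 fold change -2.11 ± 0.24 SE, edgeR adjusted p = 3.9e-05). The highest ISO library (2.29 CPM) lay far under the lowest vehicle library (7.18 CPM). Adra1b (NM_001284381, mm9 chr11:43588107-43714739, minus strand) had 0.979, 1.43 and 1.29 CPM in vehicle and 1.101, 1.99 and 2.08 CPM in ISO, with overlap (0.49 ± 0.34 SE, edgeR adjusted p = 0.305). The ratio of Adra1a to Adra1b per length was 6.99 to 12.1 in vehicle and 1.24 to 2.89 in ISO.

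The α2-adrenoceptors, which oppose lipolysis where they are abundant, were close to the limit of detection. An observed 0 is compatible with up to 3 counts, or 0.0678 to 0.132 CPM across libraries, for counting error only. Adra2a (NM_007417, mm9 chr19:54119672-54123472, plus strand) had 4, 10 and 0 counts in vehicle and 4, 30 and 16 counts in ISO, with overlap, and it passed the filter through the groups with ISO (log2 difference 1.55 ± 0.92 SE, edgeR adjusted p = 0.233). Adra2c (NM_007418, mm9 chr5:35621215-35624412, plus strand) had 0, 1 and 0 counts in vehicle, 0, 3 and 4 in ISO, 2, 0 and 0 in Lip, and 0 in each Lip+ISO library. It failed the filter and no fold is given.

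The β-arrestins moved little by comparison. Arrb1 (NM_177231, mm9 chr7:106683996-106755281, plus strand), the more abundant β-arrestin here, had 86.6, 82.7 and 87.8 CPM in vehicle and 69.01, 60.9 and 66.6 CPM in ISO. The groups were separate, and the fall was 1.31-fold (log2 fold change -0.39 ± 0.09 SE, edgeR adjusted p = 0.0076). This call was lost without replicate 2 of every group (edgeR adjusted p = 0.0996) and without replicate 3 of every group (0.0533). Arrb2 (NM_001271358, mm9 chr11:70246082-70254330, plus strand) had 6.19, 5.33 and 6.34 CPM in vehicle and 4.76, 5.00 and 6.01 CPM in ISO, with overlap (-0.18 ± 0.18 SE, edgeR adjusted p = 0.480). No other gene in the table overlaps the span of any of the 8 genes.

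**Figure D2:**
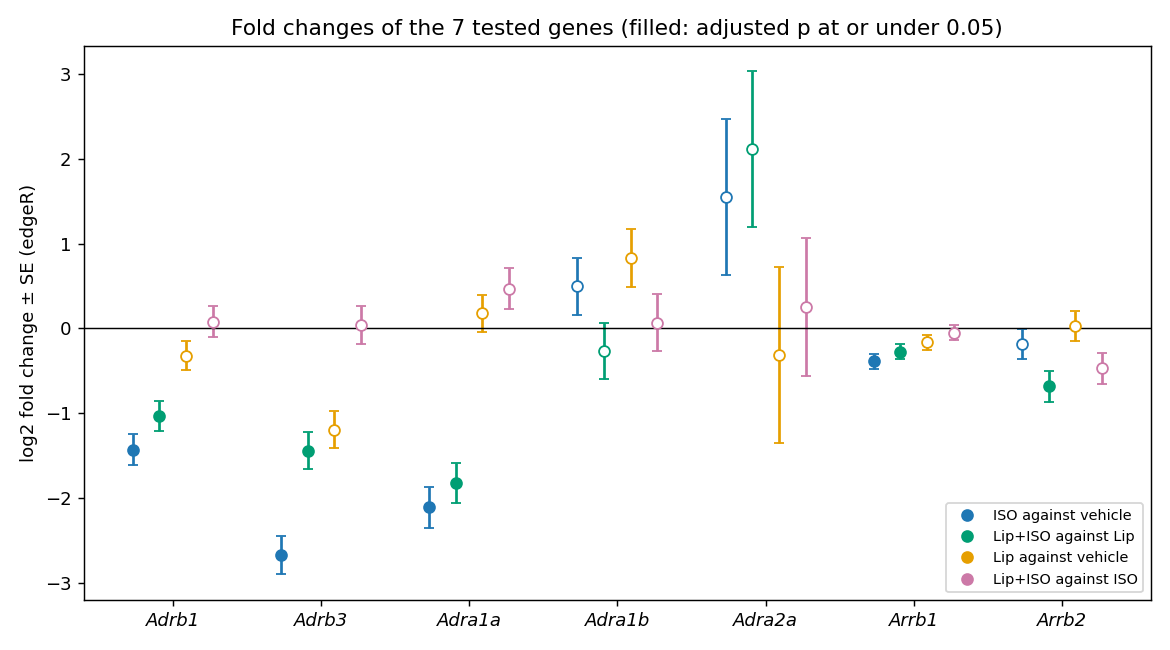
Log2 fold change with its SE (vertical axis) of the 7 tested genes in the 4 comparisons of groups, filled where the adjusted p is at or under 0.05. Both comparisons that add ISO give filled points below 0 for Adrb1, Adrb3, Adra1a and Arrb1, and no comparison that adds the inhibitors gives a filled point.

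The effect of the agonist under lipase inhibition was read from Lip+ISO against Lip. Here 5 of the 7 tested genes were lower (Adrb1, Adrb3, Adra1a, Arrb1 and Arrb2) and 0 higher, where 15.8% of all tested genes were lower and 11.5% were higher. DESeq2 called 4. The same 5 had an unadjusted p under 0.05, as 36.7% of all tested genes did, and Adra2a made 6, but it had passed the filter only through the groups with ISO, so its count is not read against that share. Falls of at least 1 log2 unit were called for 3, against 3.16%. Every Lip+ISO library lay below every Lip library for those 5, against 22% of all tested genes. It lay above for Adra2a, to which the same limit applies (17.2% of all tested genes).

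Adrb3 had 77.6, 70.6 and 91.3 CPM in Lip and 23.3, 27.7 and 37.2 CPM in Lip+ISO. The groups were separate, with a 2.71-fold fall (log2 fold change -1.44 ± 0.22 SE, edgeR adjusted p = 3.0e-04). Adrb1 had 9.83, 8.08 and 11.04 CPM in Lip and 4.89, 4.15 and 5.12 CPM in Lip+ISO (-1.03 ± 0.18 SE, edgeR adjusted p = 8.0e-04). Adra1a had 9.34, 7.73 and 11.8 CPM in Lip and 3.36, 2.82 and 1.99 CPM in Lip+ISO (-1.82 ± 0.23 SE, edgeR adjusted p = 6.7e-05). With the inhibitors present, Adra1a had the most negative log2 fold change of the tested members. These 3 receptors stayed called whichever library or replicate number was dropped (15 fits).

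The β-arrestin genes gave smaller differences. Arrb1 had 79.9, 77.4 and 72.0 CPM in Lip and 54.7, 65.6 and 69.3 CPM in Lip+ISO. These groups were separate, but Lip replicate 3 and Lip+ISO replicate 3 were close, and the log2 fold change was -0.27 ± 0.09 (SE, edgeR adjusted p = 0.0395). Its adjusted p exceeded 0.05 in 9 of 15 fits with libraries dropped, those without any 1 vehicle library, Lip replicate 1 or 2, Lip+ISO replicate 1 or 2, or all libraries numbered 1 (0.370) or 2, and also with DESeq2 (0.0553) and with only the groups compared (edgeR adjusted p = 0.106). Arrb2 had 5.81, 5.67 and 6.73 CPM in Lip and 3.15, 3.71 and 4.49 CPM in Lip+ISO, a fall of 1.60-fold (-0.68 ± 0.18 SE, edgeR adjusted p = 0.0131). Its adjusted p was above 0.05 without Lip replicate 3 (0.0543), and after dropping all libraries numbered 1 (0.110) or 2 (0.101), and it was 0.0506 with only the groups compared. The ratio of Arrb1 to Arrb2 per length was 4.31 to 4.94 in Lip+ISO and 2.99 to 3.85 in Lip, and 3.87 to 4.34 in vehicle and 3.10 to 4.06 in ISO.

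Adra1b had 2.16, 2.58 and 1.83 CPM in Lip and 1.33, 2.56 and 1.55 CPM in Lip+ISO, with overlap (-0.27 ± 0.33 SE, edgeR adjusted p = 0.618). Adra2a had 0, 5 and 9 counts in Lip and 18, 11 and 19 counts in Lip+ISO, without overlap, and its log2 fold change of 2.12 ± 0.92 (SE) did not pass the test (edgeR adjusted p = 0.113).

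Whether the inhibitors alone act on these genes was asked by comparing Lip with the same vehicle libraries that served ISO. Of the 7 tested genes 0 were called in either direction, where 0.0517% of all tested genes were. An unadjusted edgeR p under 0.05 was found for 2 (Adrb3 and Adra1b), against 4.3% of all tested genes. DESeq2 called 1, Adrb3, but the share of all tested genes that it called was not taken. Every Lip library lay below every vehicle library for 3 (Adrb1, Adrb3 and Arrb1) and above for 1 (Adra1b), against 5.21% and 5.19% of all tested genes.

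Adrb3 stood at 183 ± 46.1 CPM in vehicle and 79.8 ± 10.6 CPM in Lip, and the highest Lip library (91.3 CPM) lay well under the lowest vehicle library (152 CPM). Its log2 fold change of -1.19 ± 0.21 (SE) ranked 14 of 13543 by p and did not pass the adjustment (edgeR adjusted p = 0.101). The adjusted p was under 0.05 with DESeq2 (6.8e-05), in a fit of all genes with no minimum count (edgeR adjusted p = 0.0333) and when replicate number was blocked (edgeR adjusted p = 0.0096). With libraries dropped it was 0.0565 to 0.933 (15 fits). The ratio of Adrb3 to Adrb1 per length was 7.04 to 7.78 in Lip, below each vehicle library (11.9 to 16.3) and above each ISO library (5.17 to 6.32).

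The remaining members had adjusted p near 1 in Lip against vehicle. Adrb1 changed by -0.32 ± 0.17 (SE) on the log2 scale, Adra1a by 0.18 ± 0.22, Arrb1 by -0.17 ± 0.09 and Arrb2 by 0.03 ± 0.18. Adra1b, at 1.23 ± 0.230 CPM in vehicle and 2.19 ± 0.375 CPM in Lip, gave 0.83 ± 0.34 (edgeR adjusted p = 0.998). Adra2a, with at most 10 counts in a vehicle or Lip library, gave -0.31 ± 1.04.

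**Figure D3:**
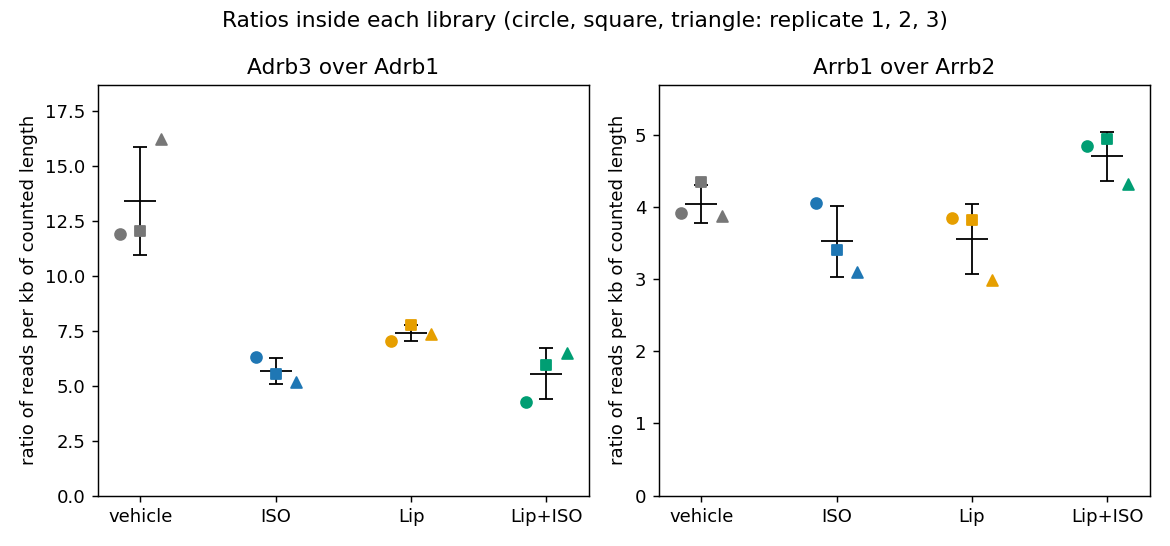
Ratio of reads per kilobase of counted length between Adrb3 and Adrb1 (left) and between Arrb1 and Arrb2 (right) inside each of the 12 libraries, with the mean and SD of each group (vertical axes from 0). The Adrb3 to Adrb1 ratio is 11.9 to 16.3 in vehicle and 4.25 to 7.78 in the other 9 libraries.

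Lip+ISO was then compared with ISO to see whether blocked lipolysis alters the level reached under the agonist. Of the 7 tested genes 0 were called, where 8.94% of all tested genes were. DESeq2 called 0, and 1 (Arrb2) had an unadjusted p under 0.05, against 23.8% of all tested genes. Adrb3 stood at 28.8 ± 7.27 CPM in ISO and 29.4 ± 7.10 CPM in Lip+ISO (difference 0.04 log2 units ± 0.22 SE, edgeR adjusted p = 0.938), and Adrb1 at 4.50 ± 0.869 and 4.72 ± 0.508 CPM (0.08 ± 0.18 SE, edgeR adjusted p = 0.834). Each group's libraries overlapped the other's for both genes. Adra1a stood at 1.98 ± 0.272 and 2.72 ± 0.690 CPM (0.47 ± 0.24 SE, edgeR adjusted p = 0.267), also with overlap. Arrb2 stood at 5.25 ± 0.666 and 3.78 ± 0.671 CPM (-0.47 ± 0.18 SE, edgeR adjusted p = 0.135). It was lower in each Lip+ISO library, as 13.5% of all tested genes were, and its edgeR adjusted p was 0.0478 when replicate number was blocked. Cell markers also differed (edgeR). Lower in Lip+ISO were 3 of 7 fibroblast or preadipocyte markers (Pdgfra -1.03, Col1a1 -0.73 and Col3a1 -0.84 on the log2 scale) and Lipe (-0.65), and Pparg was higher (0.55). Among 13543 tested genes 621 were lower and 590 higher. No marker of another cell type was called, and the part of these shifts in the values above was not tested.

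The interaction term tests whether ISO acted differently once lipases were inhibited, which the separate comparisons do not show. It was called for 0 of the 7 tested genes, where 1.62% of all tested genes were called. DESeq2 called 1, Adrb3, with no share of all genes taken. Adrb3 was also the 1 member with an unadjusted edgeR p under 0.05 (13.8% of all tested genes). For Adrb3 the interaction was 1.23 log2 units ± 0.31 (SE, edgeR adjusted p = 0.0706), where the fall was -2.67 without and -1.44 with the inhibitors, from different starting levels to nearly equal end levels. The adjusted p was 0.0034 with DESeq2, 0.0481 without the filter on low counts and 0.0090 when replicate number was blocked (edgeR), and with libraries dropped it was 0.0416 to 0.422, above 0.05 in 13 of 15 fits and under it without ISO replicate 1 (0.0416) or Lip+ISO replicate 1 (0.0425). The other members had interactions between -0.76 ± 0.47 (SE, Adra1b) and 0.57 ± 1.32 (SE, Adra2a), with edgeR adjusted p of at least 0.419.

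To place the 8 genes among the machinery that serves adrenoceptors, 6 lists of related genes were described by counts. In ISO against vehicle the median log2 fold change of all tested genes was 0.00, and 12.3% of them were called higher and 13.9% lower. Of 4 other adrenoceptors and visual arrestins, 3 were tested and 1 was lower, Adra1d (32.5 ± 4.59 to 19.4 ± 3.16 CPM, log2 fold change -0.75 ± 0.20 SE, edgeR adjusted p = 0.0138), a further α1-adrenoceptor. Its adjusted p was above 0.05 in 3 of 15 fits with libraries dropped, without vehicle replicate 1 (0.0614), ISO replicate 2 (0.0649) or all libraries numbered 3 (0.128). Of the receptor kinases, which phosphorylate occupied receptors ahead of arrestin binding, 5 of 6 were tested. With edgeR 0 passed in either direction (median log2 fold change -0.14). Their unadjusted edgeR p was under 0.05 for 0 of the 5, against 38.9% of all tested genes. Examples stood at 68.6 ± 3.43 and 66.9 ± 1.02 CPM (Adrbk1, also known as Grk2), 45.1 ± 0.262 and 40.9 ± 5.26 CPM (Grk6) and 29.4 ± 2.01 and 33.0 ± 6.81 CPM (Grk5) in vehicle and ISO. Adrbk2, also known as Grk3, stood at 3.66 ± 0.422 and 2.74 ± 0.683 CPM (-0.42 ± 0.28 SE, edgeR adjusted p = 0.290). With the inhibitors, 1 kinase passed, Adrbk1, which was lower in Lip+ISO than in Lip (-0.21 ± 0.06 SE, edgeR adjusted p = 0.0211). In that comparison 15.8% of all tested genes were lower.

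The α-arrestins are relatives of the β-arrestins that connect membrane proteins to ubiquitin ligases. Of 5 tested, 2 were lower in ISO than in vehicle, Arrdc2 (-1.42 ± 0.15 SE, edgeR adjusted p = 2.4e-05) and Txnip (-1.003 ± 0.14 SE, edgeR adjusted p = 1.9e-04), and 1 was higher, Arrdc4. Beside these counts, 13.9% of all tested genes were lower and 12.3% higher. Arrdc3, an α-arrestin known to bind β-adrenoceptors, was singled out after its values were seen. It had 38.6 ± 4.75 CPM in vehicle, 34.5 ± 2.89 in ISO and 47.5 ± 5.31 in Lip, but 114 ± 14.0 CPM in Lip+ISO. All 3 Lip+ISO libraries (101 to 129 CPM) were above every other library. Arrdc3 did not pass the test in ISO against vehicle (-0.16 ± 0.12 SE, edgeR adjusted p = 0.341), while it rose in Lip+ISO against Lip (1.26 ± 0.12 SE, edgeR adjusted p = 6.1e-06), and its interaction was 1.42 ± 0.17 (SE, edgeR adjusted p = 0.0013). Against ISO alone, 2 of 5 α-arrestins were higher in Lip+ISO, Arrdc3 (1.72 ± 0.12 SE, edgeR adjusted p = 4.8e-06) and Arrdc4 (1.11 ± 0.15 SE, edgeR adjusted p = 4.9e-04). Among all 13543 tested genes, 590 were higher in this comparison.

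Of the G protein α subunits, 11 of 13 were tested. In ISO 1 was higher (Gnai3) and 2 were lower, where 12.3% of all tested genes were higher and 13.9% lower. The 2 lower subunits were Gnaq, the partner of α1-adrenoceptors (-0.46 ± 0.09 SE, edgeR adjusted p = 0.0025), and Gnai1, a partner of α2-adrenoceptors (-0.27 ± 0.09 SE, edgeR adjusted p = 0.0479). The Gnai1 call was lost in 9 of 15 fits with libraries dropped (edgeR adjusted p up to 0.234), those without vehicle replicate 1 or 3, ISO replicate 2 or 3, Lip replicate 2 or 3, Lip+ISO replicate 2, or all libraries numbered 2 or 3. Gnas, which encodes the Gs subunit of β-adrenoceptors, did not pass (0.10 ± 0.08 SE, edgeR adjusted p = 0.400). Of 17 β and γ subunits 14 were tested and 1 was higher, Gng4, from 0.757 ± 0.421 to 3.74 ± 0.267 CPM (2.31 ± 0.29 SE, edgeR adjusted p = 1.1e-04). Of 25 genes of receptor endocytosis and recycling, all tested, 6 were higher and 2 lower, against the same 12.3% and 13.9%. Their median was 0.12. The largest rises that passed were those of Dnm1 (1.05 ± 0.32 SE, edgeR adjusted p = 0.0283) and Mdm2, a ubiquitin ligase that acts on β-arrestin (0.68 ± 0.14 SE, edgeR adjusted p = 0.0039). The Dnm1 call was lost in 5 of 15 such fits (0.77 to 1.37 over all 15, edgeR adjusted p up to 0.136), those without vehicle replicate 1 or 3, ISO replicate 2, or all libraries numbered 1 or 3, and the Mdm2 call in 1, without those numbered 3 (edgeR adjusted p = 0.056).

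**Figure D4:**
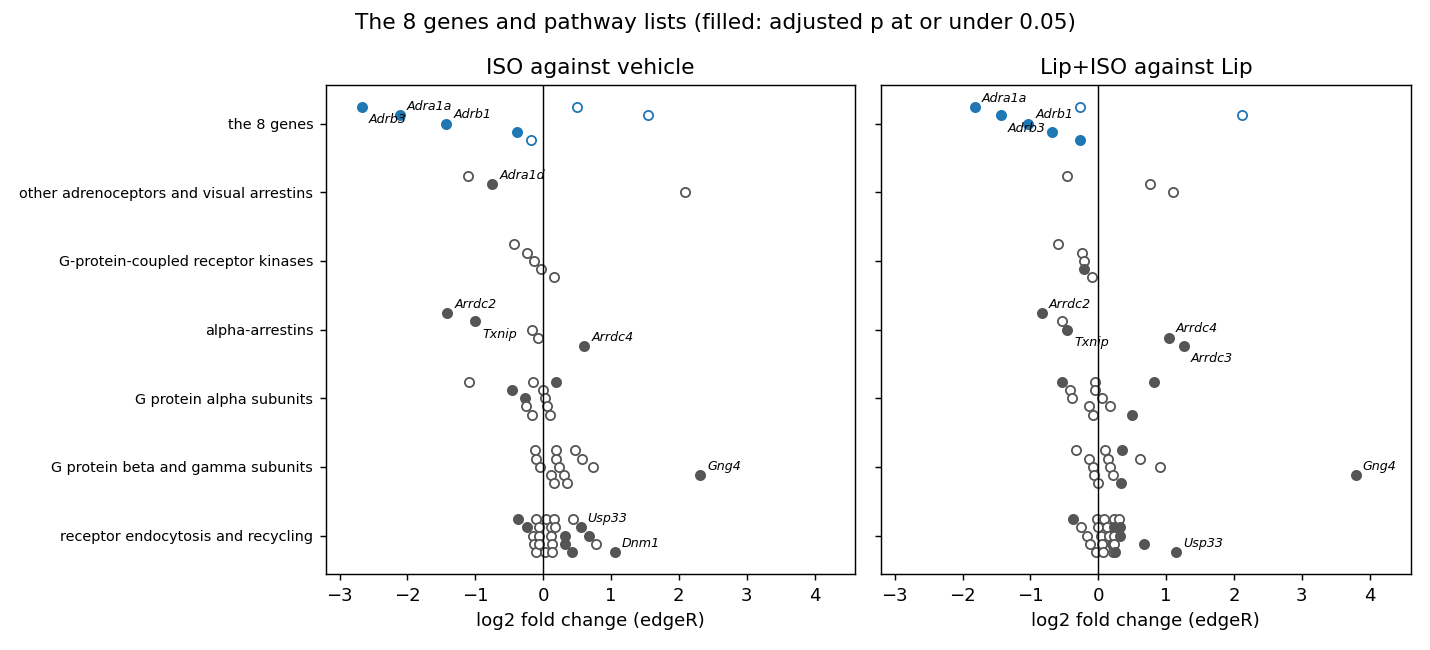
Log2 fold change (horizontal axis) of each tested gene among the 8 (top row, blue) and in 6 lists of related genes (grey) for ISO against vehicle (left) and Lip+ISO against Lip (right), filled where the adjusted p is at or under 0.05. Adrb3 is the lowest point on the left at -2.67. The receptor kinases are unfilled on the left, Adrbk2 at -0.42 among them, and Arrdc3 is filled only on the right.

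Genes whose pattern over the 12 libraries was most like that of a member were found by the root mean square difference of log2 CPM, each gene centered on its own mean, among 11921 other genes with a mean of at least 1 CPM. For Adrb3 these were Klhdc7a (0.40 log2 units), Rasd1 (0.41, whose span overlaps Med9), Irs3 (0.41), Zfp449 (0.45) and Fzd4 (0.47), where a flat gene would differ by 1.14. Irs3 encodes a rodent insulin receptor substrate of adipocytes and Fzd4 a Wnt receptor, and in ISO against vehicle they changed by -2.44 ± 0.13 and -1.72 ± 0.14 (SE). For Adra1a they were the clock gene Per3 (0.28), Smad9 (0.28) and Dixdc1 (0.29), where a flat gene would differ by 1.01. For Adrb1 they were Anks1 (0.18), Znf512b (0.19) and Dnajc28 (0.19), against 0.64 for a flat gene. For Arrb1 they were Vkorc1l1 (0.053), Slc33a1 (0.060) and Tstd2 (0.060), against 0.20.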

How the data were processed

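RNA-seq libraries (TruSeq2) were compared in 4 groups of 3, taken from the sample titles. Per the study's methods and the submitters' processing notes, the authors aligned reads to mm9 with STAR (2.4.2a) and counted them per RefSeq gene with HOMER, allowing 1 read per position and length, and iRNA-seq. The values deposited are raw read counts per gene, not normalized, with the counted length in base pairs. Nothing states that counting used strand. The figure legend that gives doses for these cells names a stimulus other than that in the labels, so no dose is given. The methods describe 3 independent experiments, but no label ties a library to an animal, so p-values measure the spread between these libraries.

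Counts were tested in R 4.3.3 with edgeR 4.0.16: filterByExpr (13543 genes kept), TMM scaling (factors 0.924 to 1.07), a quasi-likelihood fit with 1 mean per group over all 12 libraries and no replicate term, two-sided F-tests and Benjamini-Hochberg adjustment over all tested genes. CPM and RPKM use the TMM-scaled library sizes, and log2 CPM a prior count of 2. SE is the log2 fold change divided by the root of F. DESeq2 1.42.0 was an alternative. The method was tested on simulated data. Coordinates are 1-based.

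The 8 genes and the lists were chosen with earlier results of these data known. The genes named are the 8, the genes most like Adrb3 (5) and like each other member lower in ISO (3 each), and from each list the 2 largest changes in ISO against vehicle that passed. The exceptions, chosen after their values were seen, are Arrdc3, Arrdc4, Gnai3, Gnas, Adrbk1, Adrbk2, Grk5, Grk6 and the markers named.

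Alternatives were library totals in place of TMM, DESeq2, no filter, a replicate block, only the groups compared, a minimum fold change, and 15 fits that left out 1 library (12) or 1 replicate number (3). Replicate pairs differed by at least 16.0 in chi-square per gene, where counting error alone gives about 1, so no library stood a second time within its group. Libraries of different groups were not compared in this way. The result of a further list is not reported here.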

Additional observations from a re-analysis of the deposited data

Results flagged for a closer look

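The effect of ISO on Arrdc3 depended on the lipase inhibitors by the interaction term (log2 difference 1.42, SE 0.17, edgeR adjusted p = 0.0013). Its adjusted p was at most 0.0667 in the 15 fits that left libraries out, and it was above 0.05 in 1 of them, without replicate 3 of every group. None (0) of the 7 tested adrenoceptor and β-arrestin genes met this criterion, and DESeq2 called 1, Adrb3.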

How the results depend on the processing

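Counts of changed members moved as follows. In Lip+ISO against Lip, 5 became 3 with a minimum log2 fold change of 1 and 3 with only the groups compared (without Arrb1 and Arrb2 in both), and ranged from 3 to 5 in fits that left libraries out. In Lip against vehicle and in the interaction, 0 became 1 (Adrb3) with DESeq2, with no filter on low counts and when replicate number was blocked. In Lip+ISO against ISO, 0 became 1 (Arrb2) with the block. Leaving libraries out gave 0 to 1 for the interaction, 3 to 4 for ISO against vehicle and 0 for the other 2 comparisons. Except for the minimum fold change, the share of all genes called under these alternatives was not taken. The cause of these shifts was not tested. Leaving libraries out reversed the direction of some changes that did not pass the test. In Lip+ISO against ISO the log2 fold change ranged from -0.17 to 0.39 for Adrb3, -0.084 to 0.18 for Adrb1, -0.26 to 0.31 for Adra1b, -0.23 to 0.76 for Adra2a and -0.13 to 0.091 for Arrb1. In Lip against vehicle it ranged from -0.0040 to 0.31 for Adra1a, -1.63 to 1.00 for Adra2a and -0.062 to 0.081 for Arrb2. The interaction ranged from -0.74 to 1.95 for Adra2a and from -0.0032 to 0.29 for Arrb1, and Arrdc3 in ISO against vehicle from -0.28 to 0.0059. Of 690 recomputed values of single members, 640 kept their direction and side of the threshold. Same-numbered libraries deviated together in 17 of 18 pairs at a correlation above 0.1 (0.037 to 0.37), and all 12 libraries correlated best with their own number, a hint from the data and not from the labels, so the replicate block is given as an alternative only. Beside the calls named above, the block changed no other call of a member. Levels per kb in vehicle moved by less than 1 SD with library totals in place of TMM. Leaving out 1 of the 3 vehicle libraries cannot move their mean by 1 SD, so that alternative does not test the levels. Depth limits Adra2a and Adra2c, with at most 30 and 4 counts in a library.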
